A study of Mus musculus with 6 samples.

Results

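Expression of 8 genes that report on glucocorticoid and metal exposure was followed in cancer-associated fibroblasts (CAFs) of mouse mammary tumors. They are Fkbp5, Tsc22d3, Per1, Zbtb16, Hsd11b1 and Sgk1, which glucocorticoids induce or which act in glucocorticoid signalling, and the metallothionein genes Mt1 and Mt2, which metals and glucocorticoids both induce. They were found by gene symbol among the 27179 genes of the count table, and all 8 were among the 14855 genes left for testing after genes with low counts were removed. RNA sequencing was done on 6 libraries, in which the CD34 negative and the CD34 positive CAFs of each of 3 raGFP-Wnt1 tumors were sorted and sequenced separately, so n = 3 per group. The tumors of both groups carried the same alleles: an MMTV-Wnt1 transgene, which drives tumor growth from the mammary epithelium (FVB/NJ background), and 1 copy of a Pdgfra-H2B-GFP reporter (C57BL/6 background), whose GFP signal chose the cells. The labels name no hormone or metal treatment for either group, and the age of the mice, the hour of collection, the corticosterone level and whether the tumors came from separate mice are not given in the sources used here. CAFs that do not express Pdgfra fall outside this sort.

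Glucocorticoids, corticosterone in the mouse, enter the cell and bind the glucocorticoid receptor (Nr3c1), which is held ready by heat shock protein chaperones. The bound receptor moves to the nucleus and binds glucocorticoid response elements (GREs), and it also holds back many inflammatory genes. In fibroblasts this hormone is known for restraining cytokine output and for setting the level of a small group of target genes. Metallothioneins are small cysteine-rich proteins that bind zinc and copper, and the zinc-sensing factor MTF1 turns their genes on through metal response elements (MREs).

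The libraries held between 16238059 counts (CD34 positive, tumor 1) and 86609267 counts (CD34 positive, tumor 2). Levels below are CPM, the counts of a gene per 1e6 counts of its library, with the library total scaled by a composition factor. Cd34 itself was at 74.3 ± 30.2 CPM (SD, n = 3) in CD34 negative and at 948 ± 571 CPM in CD34 positive CAFs, which is in the direction of the labels. The summed level of 6 fibroblast markers ran from 39907 to 58639 CPM in the 6 libraries. The CD34 negative library of tumor 3 stood apart from the rest: it had the fewest genes with counts (14314, against up to 19220) and the lowest correlations with the others (0.837 to 0.883). Calls and signs of the 8 genes that change without it or without tumor 3 are given beside the gene. Markers of other cells were summed. The 6 pericyte markers came to 211 to 236 CPM in CD34 negative and 86.8 to 188 CPM in CD34 positive CAFs, and the 6 endothelial markers to 11.4 to 33.2 and 56.7 to 123 CPM, most of it Tek in the CD34 positive libraries. Of the pericyte markers Rgs5, Cspg4, Mcam and Notch3 were higher in every CD34 negative than in any CD34 positive library and Kcnj8 was lower, and of the endothelial markers Pecam1 reached at most 12.9 and Cldn5 at most 0.908 CPM. Epithelial (48.3 to 149 against 12.8 to 130 CPM) and immune markers (12.5 to 16.2 against 6.31 to 19.7 CPM) overlapped between the groups. The study's antibody panel removes CD31, CD45 and TER-119 positive cells, that is endothelial, immune and red blood cells, and its tumor sorts for single cells used this gate, but its methods name only GFP and CD34 for these libraries. The part of other cells in the results was not tested.

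The stretches of DNA next to the transcript starts are shown first, since the glucocorticoid receptor, MTF1 and the clock factors are known to recognise short runs of letters in such stretches. The windows are those of RefSeq (GRCm38.p6), each 300 bases around an annotated start, and 7 of the 8 genes matched an entry (Zbtb16 did not). Positions are counted from 0 at the annotated start, on the strand of the gene. Each window was searched on both strands for the GRE hexamer (TGTTCT, or AGAACA on the other strand), for the full GRE palindrome (AGAACA, any 3 bases, TGTTCT), for the MRE core (TGCACNC or TGCGCNC) and for the E-box of the clock factors (CACGTG). A full palindrome contains 2 hexamers. Capitals mark the matches in the 5 windows shown, which are written 5′ to 3′.
Sgk1, start 5, chr10:21993640-21993939, plus strand: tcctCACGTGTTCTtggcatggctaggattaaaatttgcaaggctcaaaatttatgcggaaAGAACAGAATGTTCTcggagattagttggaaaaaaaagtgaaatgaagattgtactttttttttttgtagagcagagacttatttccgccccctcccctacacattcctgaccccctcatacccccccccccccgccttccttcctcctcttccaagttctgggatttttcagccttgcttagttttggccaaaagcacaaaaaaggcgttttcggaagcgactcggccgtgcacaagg
Tsc22d3, start 1, chrX:140600473-140600772, minus strand: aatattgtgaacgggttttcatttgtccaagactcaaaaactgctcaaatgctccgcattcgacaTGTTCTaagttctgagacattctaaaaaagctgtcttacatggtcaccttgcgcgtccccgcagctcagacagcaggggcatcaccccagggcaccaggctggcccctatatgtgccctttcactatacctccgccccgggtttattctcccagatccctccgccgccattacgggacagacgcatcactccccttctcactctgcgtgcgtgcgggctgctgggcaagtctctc
Per1, start 1, chr11:69098699-69098998, plus strand: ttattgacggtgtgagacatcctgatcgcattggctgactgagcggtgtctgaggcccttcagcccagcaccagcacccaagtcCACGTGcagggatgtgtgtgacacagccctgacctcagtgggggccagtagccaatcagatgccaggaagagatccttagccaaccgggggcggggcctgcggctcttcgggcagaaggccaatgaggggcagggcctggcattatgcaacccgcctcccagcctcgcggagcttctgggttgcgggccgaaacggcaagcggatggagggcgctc
Mt1, chr8:94178839-94179138, plus strand: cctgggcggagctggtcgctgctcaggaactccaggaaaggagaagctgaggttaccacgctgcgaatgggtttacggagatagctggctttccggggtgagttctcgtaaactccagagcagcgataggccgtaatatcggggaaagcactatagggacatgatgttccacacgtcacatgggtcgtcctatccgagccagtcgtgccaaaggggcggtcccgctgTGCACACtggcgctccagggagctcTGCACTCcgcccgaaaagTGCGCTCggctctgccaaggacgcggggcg
Mt2, chr8:94172368-94172667, plus strand: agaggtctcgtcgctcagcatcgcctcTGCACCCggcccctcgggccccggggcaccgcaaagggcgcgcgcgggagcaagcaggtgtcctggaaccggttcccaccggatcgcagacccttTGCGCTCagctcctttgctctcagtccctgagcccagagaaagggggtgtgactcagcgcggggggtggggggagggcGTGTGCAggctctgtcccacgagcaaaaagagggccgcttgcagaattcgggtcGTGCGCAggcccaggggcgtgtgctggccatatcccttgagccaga

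The full GRE palindrome stood in the window of Sgk1 start 5, from -189 to -175, and only 3 of the 32851 promoter windows of the RefSeq table (0.00913%) held one. That window held another hexamer from -242 to -237, which shared letters with an E-box from -246 to -241. Single hexamers stood at Sgk1 starts 1 and 4 and at Tsc22d3 start 1 (-185 to -180), and 19.0% of all windows held at least 1. The windows of Fkbp5 and Per1 start 1 held no GRE hexamer but an E-box, from -169 to -164 and from -166 to -161, and 7.15% of all windows held an E-box. Mt1 had MRE cores starting at -23, 2 and 20, and Mt2 at -223, -128, -50 and 4. At least 3 cores were found in 1.97% of all windows and at least 4 in 0.517%, while 25.7% held at least 1, among them Hsd11b1 (-237 to -231), Per1 start 2 and Sgk1 start 6. A match says only that the letters are there, and these libraries do not show which start a transcript came from.

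**Figure D1:**
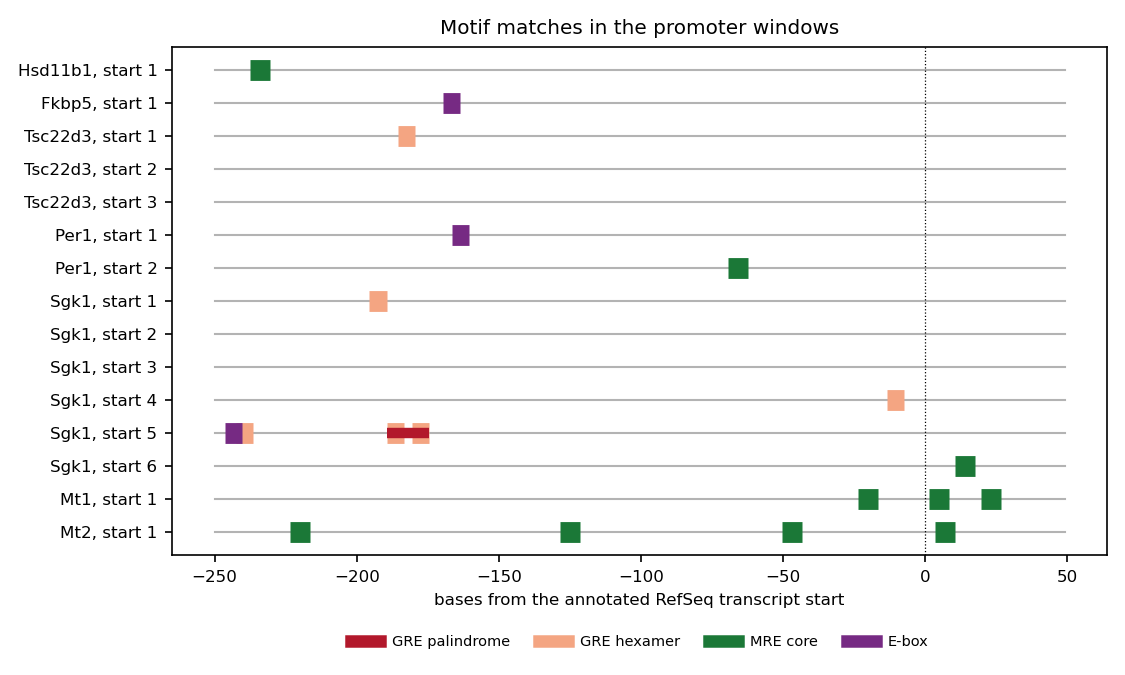
Motif matches in the RefSeq promoter windows of 7 genes, drawn to scale. Each line is a 300-base window, the horizontal axis gives bases from the annotated transcript start (dotted line), and boxes mark the GRE palindrome, GRE hexamers, MRE cores and E-boxes; Sgk1 start 5 alone carries the palindrome, and Mt1 and Mt2 carry 3 and 4 MRE cores.

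The 8 genes covered a wide range of expression. Per kilobase of transcript, as means over the 6 libraries, Mt2 was at 2176 and Mt1 at 1689 CPM per kilobase, places 16 and 19 among the 14855 genes tested. Sgk1, a kinase that controls ion transport and cell survival, followed at 486 CPM per kilobase (place 124). Tsc22d3 (85.5) and Hsd11b1 (84.0 CPM per kilobase) came next, then Per1 at 19.9 and Fkbp5 at 7.53. Zbtb16 was near the bottom at 0.365 CPM per kilobase, place 13389. Every step of this order was seen in 6 of 6 libraries apart from Tsc22d3 over Hsd11b1, which was seen in 4 of 6, so those neighbours in the order did not differ beyond their spread. Fibroblasts of both groups thus had abundant metallothionein and Sgk1 RNA and little Zbtb16 RNA.

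CD34 negative and CD34 positive CAFs were then compared, the question for which the 2 fractions were sorted. Tsc22d3, Per1 and Hsd11b1 were higher in the CD34 negative fraction of every tumor, by 1.61 to 1.92 times in the mean, and passed in limma-voom with the tumor as a replicate block. Fkbp5, Sgk1, Mt1 and Mt2 did not pass, and Zbtb16, whose counts were lowest, was lower in the CD34 negative fraction of every tumor without passing. In limma-voom without a tumor term, none of the 8 genes had an adjusted p under 0.05, against 18 of all 14855 genes (0.121%). By unadjusted p under 0.05, 4 of the 8 passed, against 14.3% of all genes. With the tumor as a replicate block, 3 of the 8 were higher and 0 lower in CD34 negative CAFs, against 4.32% of all genes higher and 4.25% lower. Counting tumors, 4 of the 8 genes were higher in 3 of 3 tumors (22.8% of all genes) and 1 was lower in 3 of 3 (23.4%). Because these are bulk libraries, fewer cells that express a gene and less RNA per cell cannot be told apart.

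**Figure D2:**
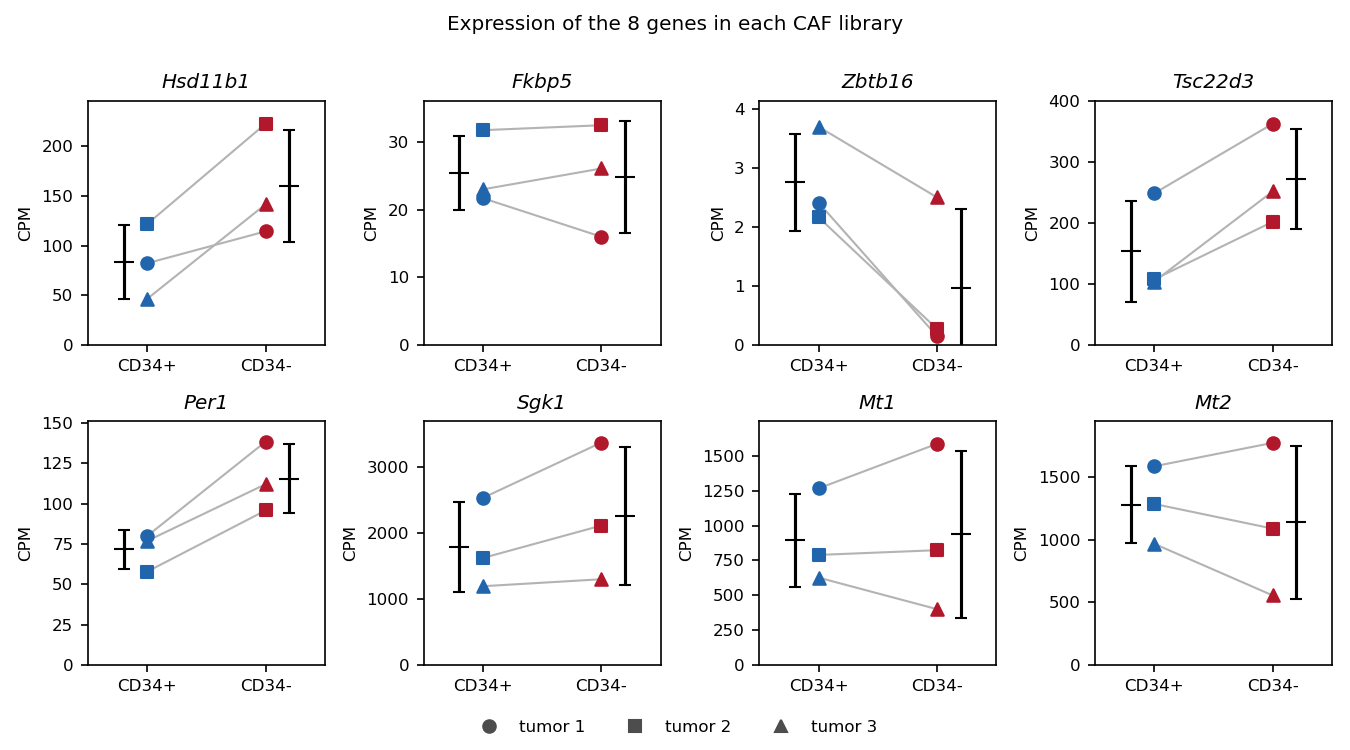
Expression (CPM, vertical axis, from 0) of the 8 genes in CD34 positive (blue) and CD34 negative (red) CAFs. Each symbol is a library, grey lines join the fractions of a tumor, black bars give mean ± SD (n = 3; the bar of Zbtb16 in CD34 negative CAFs is clipped at 0), and Per1 is the only gene with all 3 CD34 negative libraries (95.7 to 138 CPM) above all 3 CD34 positive ones (57.8 to 79.9 CPM).

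Hsd11b1 (chr1:193221640-193264045) encodes the reductase that regenerates active glucocorticoid from its inert form inside the cell. It was at 114, 223 and 142 CPM in the CD34 negative CAFs of tumors 1, 2 and 3, and at 82.1, 122 and 46.2 CPM in the CD34 positive CAFs. The CD34 negative library was the higher in each tumor, although the groups overlapped because tumor 2 was high in both fractions. Within tumors the ratio was 1.39, 1.83 and 3.06 times, so the size of the difference varied with the tumor. The log2 fold change was 0.99 ± 0.38 (SE) without the block (adjusted p = 0.293) and 1.00 ± 0.20 with it (adjusted p = 0.0151), both by limma-voom. It did not pass by edgeR with the block (adjusted p = 0.0679) or with the tumor as random effect in limma-voom (adjusted p = 0.0821). H6pd, whose product supplies NADPH to the Hsd11b1 enzyme, was also higher with the block (log2 fold change 0.59 ± 0.15, adjusted p = 0.0403), at 183 ± 27.5 against 125 ± 46.8 CPM. H6pd did not pass by edgeR with the block (adjusted p = 0.0919), nor in limma-voom without tumor 1 (0.102) or tumor 3 (0.0603). Hsd11b2, the enzyme of the opposite reaction, was low in both groups (2.65 ± 2.70 and 2.16 ± 1.89 CPM, adjusted p = 0.828 with the block).

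Fkbp5 (chr17:28398753-28486149) encodes a co-chaperone that lowers the hormone affinity of the receptor and is itself a strong glucocorticoid target. It was at 16.01, 32.5 and 26.1 CPM in CD34 negative and at 21.7, 31.8 and 23.0 CPM in CD34 positive CAFs of tumors 1, 2 and 3. The groups overlapped throughout, with tumor 2 highest in both fractions, and the fold of the highest over the lowest library was only 2.03. With the block, the log2 fold change was -0.02 ± 0.18 (adjusted p = 0.972), and its 95% interval ran from -0.43 to 0.40. Its ratio was below 1 in tumor 1 and above 1 in tumors 2 and 3, and whether it differs from that of Tsc22d3 or Per1 was not tested. Among its relatives, Fkbp4, Fkbp1a, Fkbp9 and Fkbp10 did not pass either (log2 fold changes with the block between -0.26 and 0.06).

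Tsc22d3 (chrX:140539528-140600522), also known as GILZ, encodes a leucine zipper protein that mediates anti-inflammatory effects of glucocorticoids. Its CD34 negative libraries had 363, 202 and 252 CPM and its CD34 positive libraries 249, 107 and 104 CPM in tumors 1, 2 and 3. Tumor 1 was highest in both fractions, and its CD34 positive library lay among the CD34 negative libraries of the other tumors, so the groups overlapped. Within tumors the CD34 negative library was higher by 1.46, 1.88 and 2.43 times. The log2 fold change was 0.90 ± 0.37 without the block (limma-voom, adjusted p = 0.321) and 0.91 ± 0.15 with it (adjusted p = 0.00804). By edgeR with the block the adjusted p was 0.0414, and it stayed under 0.05 in limma-voom when any 1 of the tumors was left out, but not with the tumor as random effect (adjusted p = 0.0810). Of its relatives, Tsc22d1 was higher as well (0.67 ± 0.15 with the block, adjusted p = 0.0260), while Tsc22d4 (0.48, adjusted p = 0.163) and Tsc22d2 (-0.08, adjusted p = 0.754) did not pass.

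Per1 (chr11:69095108-69109965), a repressor of the circadian clock that glucocorticoids also induce, was the only one of the 8 whose groups did not overlap. It was at 138, 95.7 and 112 CPM in CD34 negative and at 79.9, 57.8 and 76.8 CPM in CD34 positive CAFs of tumors 1, 2 and 3. All CD34 negative libraries lay above all CD34 positive ones, which held for 1 of the 8 genes, against 10.4% of all genes in this direction and 10% in the other. The ratio was 1.73, 1.66 and 1.46 times in the 3 tumors. The log2 fold change was 0.70 ± 0.21 without the block (limma-voom, adjusted p = 0.188) and 0.69 ± 0.13 with it (adjusted p = 0.0134), and 0.69 by edgeR with the block (adjusted p = 0.0413). Without tumor 2 the blocked value was 0.65 and did not pass (adjusted p = 0.107). Its relatives Per2 (0.34, adjusted p = 0.357) and Per3 (0.62, adjusted p = 0.175) did not pass with the block.

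Zbtb16 (chr9:48651797-48836225) encodes PLZF, a zinc finger repressor that is switched on by glucocorticoids in many cell types. It had 8, 12 and 91 counts in CD34 negative and 39, 185 and 105 counts in CD34 positive libraries, which are 0.142, 0.266 and 2.50 CPM against 2.41, 2.17 and 3.70 CPM. The CD34 negative libraries of tumors 1 and 2 lay far below the rest, and that of tumor 3, the library that stood apart, lay within the range of the CD34 positive ones. CD34 positive CAFs had 16.2 and 7.85 times more in tumors 1 and 2 and 1.48 times more in tumor 3. The log2 fold change was -2.62 ± 0.97 without the block (limma-voom, adjusted p = 0.286) and -1.73 ± 0.85 with it (adjusted p = 0.269). It passed with the block in DESeq2 (adjusted p = 0.0310) and in limma-voom without tumor 3 (-3.43, adjusted p = 0.0115), and not in edgeR (adjusted p = 0.223), so whether it differs rests on tumor 3 and on the tool. Of its relatives Zbtb7a was higher in CD34 negative CAFs (0.73 ± 0.15, adjusted p = 0.0182), and Zbtb7b (0.45, adjusted p = 0.249) and Zbtb20 (0.08, adjusted p = 0.867) did not pass.

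Sgk1 (chr10:21882184-21999903) is the kinase gene whose start 5 window, and no other of its windows, held the GRE palindrome. It was at 3368, 2111 and 1298 CPM in CD34 negative and at 2530, 1620 and 1192 CPM in CD34 positive CAFs of tumors 1, 2 and 3. Each CD34 negative library lay above its partner, but the tumors differed more than the fractions and the groups overlapped. Within tumors the ratio was 1.33, 1.30 and 1.09 times. With the block the log2 fold change was 0.30 ± 0.13 with a 95% interval from 0.013 to 0.59, which did not pass after adjustment (limma-voom, adjusted p = 0.195). Without tumor 3 the blocked value was 0.38 (adjusted p = 0.0877), and without the CD34 negative library of tumor 3 the unblocked value was 0.62, against 0.27 with all libraries. Among 10 tested substrates and partners of the kinase, Foxo3, a transcription factor it inhibits, was higher (1.00 ± 0.17, adjusted p = 0.00793) and Ndrg1, a stress protein it phosphorylates, was lower in CD34 negative CAFs (-0.73 ± 0.13, adjusted p = 0.0109), both with the block. Its relative Sgk3 did not pass (-0.13, adjusted p = 0.834), and Sgk2 had too few counts to be tested.

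**Figure D3:**
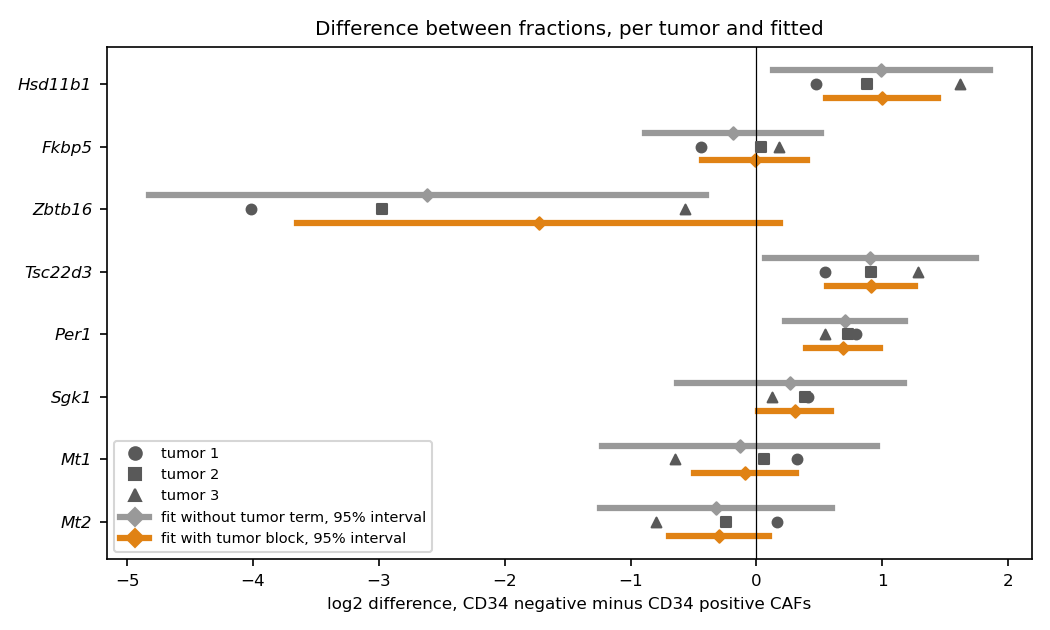
Difference between the fractions for each gene on the log2 scale (horizontal axis, CD34 negative minus CD34 positive). Dark symbols are the ratios within tumors 1 to 3, diamonds are limma-voom estimates, and bars are unadjusted 95% intervals without (grey) and with (orange) the tumor block; Hsd11b1, Tsc22d3 and Per1 lie right of 0 in every tumor, with blocked intervals from 0.56 to 1.44, from 0.56 to 1.26 and from 0.39 to 0.98.

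The metallothionein genes lie side by side on chromosome 8, Mt2 at chr8:94172618-94173567 and Mt1 at chr8:94178883-94180327, with 5315 bases between them. The longest run of bases their transcripts share is 20, so a longer read can match only 1 of them without a mismatch. Matches with mismatches were not examined. Mt1 was at 1587, 823 and 400 CPM in CD34 negative and at 1266, 789 and 626 CPM in CD34 positive CAFs of tumors 1, 2 and 3. The CD34 negative fraction was the higher in tumors 1 and 2 and the lower in tumor 3. Mt2 was at 1774, 1089 and 555 CPM in CD34 negative and at 1587, 1286 and 968 CPM in CD34 positive CAFs. It was higher in the CD34 negative fraction in tumor 1 and lower in tumors 2 and 3, so neither gene moved 1 way over the tumors. With the block the log2 fold change was -0.09 ± 0.18 for Mt1, with an interval from -0.50 to 0.31 (limma-voom, adjusted p = 0.827). For Mt2 it was -0.30 ± 0.18, with an interval from -0.70 to 0.10 (adjusted p = 0.365). Without tumor 3 the blocked values were 0.18 for Mt1 (adjusted p = 0.443) and -0.052 for Mt2 (adjusted p = 0.865). Without only its CD34 negative library the unblocked values were 0.38 and 0.13, against -0.13 and -0.32 with all libraries. Mt2 was positive in no other alternative fit. Unblocked, Mt1 was also positive by edgeR (0.067), DESeq2 (0.055) and with quality weights (0.14). The same held without the CD34 positive library of tumor 1 (0.19) and without tumor 3 (0.13), so its sign did not rest on 1 library alone. The ratio of Mt2 to Mt1 was 1.12, 1.32 and 1.39 in the CD34 negative and 1.25, 1.63 and 1.54 in the CD34 positive libraries, higher in the CD34 positive fraction of each tumor. Mt4 was barely detected (at most 1.1 CPM) and Mt3 was not tested for low counts.

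The level of several of these genes differed by tumor in limma-voom. Mt1, Mt2 and Sgk1 were highest in tumor 1 and lowest in tumor 3 in both fractions. Averaged over the fractions, the tumors spanned 1.502 for Mt1, 1.23 for Sgk1 and 1.20 for Mt2 on the log2 scale, against a median of 0.63 over all genes. Of all genes, 79.5%, 74.7% and 74% spanned less than these. Zbtb16, whose counts were lowest, spanned the most of the 8 genes (2.33, with 87.8% of all genes spanning less). An F test of the tumor term in the blocked limma-voom fit, added after the data had been seen, gave adjusted p = 0.00880 for Sgk1, 0.0164 for Mt1, 0.0373 for Mt2 and 0.0313 for Tsc22d3, against 4.03% of all genes called. Hsd11b1 (0.0796), Fkbp5 (0.123), Per1 (0.184) and Zbtb16 (0.563) did not pass. By edgeR 1.12% of all genes passed and none of the 8 did, with adjusted p = 0.0701 for Sgk1 and 0.0949 for Mt1. In limma-voom without tumor 3, the tumor term passed for Hsd11b1 (adjusted p = 0.00519), Fkbp5 (0.0124) and Per1 (0.0307), against 15.9% of all genes. Hsd11b1 and Fkbp5 also passed without only the CD34 negative library of tumor 3, as did 16.1% of all genes. Sgk1, Mt1 and Mt2 still passed in limma-voom without the CD34 negative library of tumor 3 and without each tumor in turn, with adjusted p of at most 0.0485, whereas Tsc22d3 did not pass without tumor 1 (adjusted p = 0.787). A sum of 16 immediate early genes that tissue dissociation induces was also highest in tumor 1, at 38101 and 33348 CPM in CD34 negative and CD34 positive CAFs, but lowest in tumor 2 (25238 and 21979 CPM) and between them in tumor 3 (28223 and 26805 CPM). Its part in the levels of the 8 genes was not tested, and the hour of collection cannot be told apart from the tumor.

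**Figure D4:**
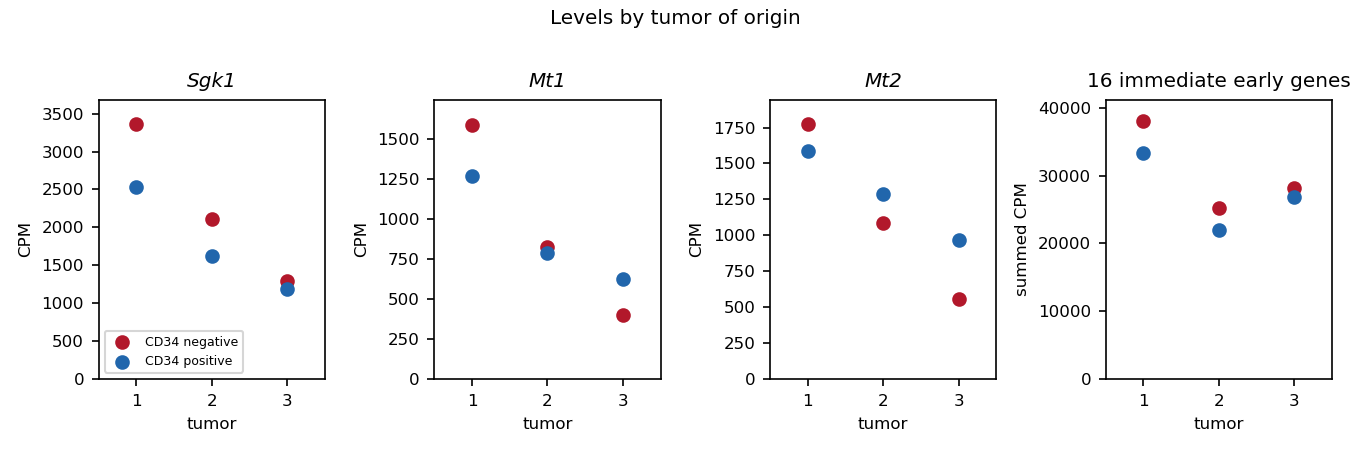
Levels by tumor (horizontal axis) in CD34 negative (red) and CD34 positive (blue) CAFs, as CPM for Sgk1, Mt1 and Mt2 and as summed CPM for 16 immediate early genes (vertical axes from 0). Each point is a library; tumor 1 is highest in all panels, and tumor 3 is lowest for Sgk1, Mt1 and Mt2 but not for the immediate early genes.

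Other genes of the same pathways were counted from lists that do not include the 8 genes. Over all lists, 144 of 155 genes were tested, and with the tumor block 18 were higher and 13 lower in CD34 negative CAFs, where over all genes 4.32% were higher and 4.25% lower. Without the block 0 of the 144 passed (0.121% of all genes), while 33 had an unadjusted p under 0.05 (14.3% of all genes, limma-voom). By edgeR with the block 12 of the 144 passed, against 3.87% of all genes. These were Crispld2, Foxo3, Thbd, Cxcl1, Cxcl2, Ccl2, Ccl7, Nr1d1, Zbtb7a, Ndrg1, Hspa1a and Hspa1b. Log2 fold changes, medians and adjusted p-values for the lists below are from limma-voom with the block, where the median log2 fold change over all genes was -0.01.

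Of 18 tested genes of the glucocorticoid receptor machinery 2 were higher and 0 lower (4.32% and 4.25% of all genes), H6pd (values above) among them. The median log2 fold change was -0.02. The receptor gene Nr3c1 was at 105, 97.4 and 95.6 CPM in CD34 negative and at 144, 110 and 137 CPM in CD34 positive CAFs. The groups did not overlap, with CD34 negative lower, as for 10% of all genes, and the difference did not pass (-0.38 ± 0.13, adjusted p = 0.123). The mineralocorticoid receptor gene Nr3c2, whose product binds the same hormones, was low in both groups, at 5.84 ± 1.85 and 4.87 ± 2.51 CPM (adjusted p = 0.640).

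Of 36 tested genes known to be induced by glucocorticoids, 4 were higher and 4 lower in CD34 negative CAFs, with a median log2 fold change of 0.22 (4.32% and 4.25% of all genes). Crispld2, a secreted protein with anti-inflammatory effects, was at 682 ± 75.9 against 205 ± 96.3 CPM (1.87 ± 0.28, adjusted p = 0.00467). Nedd9, a focal adhesion scaffold (1.04, adjusted p = 0.0319), Foxo3 and the mTOR inhibitor gene Ddit4 (0.83, adjusted p = 0.0370) were higher too, Foxo3 being on this list as well as among the substrates of Sgk1. Against these, Thbd, the thrombomodulin gene, was at 79.5 ± 17.1 against 216 ± 51.8 CPM (-1.44 ± 0.12, adjusted p = 0.000419). Cdkn1c, a cell cycle inhibitor (-1.01, adjusted p = 0.0250), Tgfbr3, a co-receptor of TGF-beta (-0.83, adjusted p = 0.0114), and Glul, the glutamine synthetase gene (-0.81, adjusted p = 0.0125), were lower as well.

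Of 18 tested inflammatory genes that glucocorticoids repress, 7 were lower and 1 higher in CD34 negative CAFs (4.25% and 4.32% of all genes), and the median log2 fold change was -0.66. The neutrophil-attracting chemokine gene Cxcl1 was at 575, 858 and 400 CPM in CD34 negative and at 1285, 2274 and 1469 CPM in CD34 positive CAFs (-1.48 ± 0.15, adjusted p = 0.00103). Its relatives Cxcl2 (-1.66 ± 0.20, adjusted p = 0.00186) and Cxcl5 (-1.78 ± 0.28, adjusted p = 0.00573) were lower, as were Cxcl10, which attracts T cells (-1.80 ± 0.38, adjusted p = 0.0202), and Ccl7, which attracts monocytes (-1.10 ± 0.16, adjusted p = 0.00397). Il6 and Ccl2 made up the 7. Mmp13, a collagenase gene, was the higher one, at 79.1 ± 28.7 against 32.8 ± 17.7 CPM (1.15 ± 0.26, adjusted p = 0.0255). From bulk libraries of these fractions, the study reports that CD34 positive CAFs resembled inflammatory CAFs and CD34 negative CAFs myofibroblastic CAFs. Lower inflammatory genes in CD34 negative CAFs go with that description of the fractions. The part of glucocorticoids in these differences was not tested.

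Of 18 tested genes of the circadian clock other than Per1, 4 were higher and 0 lower (4.32% and 4.25% of all genes), and the median log2 fold change was 0.41. Nr1d1, a repressor in the second loop of the clock, was at 114, 74.8 and 108 CPM in CD34 negative and at 56.6, 37.8 and 42.3 CPM in CD34 positive CAFs (1.11 ± 0.15, adjusted p = 0.00280). Its groups did not overlap, like those of Per1 and of 10.4% of all genes in this direction. Bhlhe41 (1.30 ± 0.28, adjusted p = 0.0230) and Bhlhe40 (0.52 ± 0.12, adjusted p = 0.0313), which repress clock genes, and the activator Npas2 (0.59 ± 0.15, adjusted p = 0.0392) were higher as well. Both fractions of a pair came from the same tumor. The hours of collection and of sorting are not given in the sources used here, and their part in these differences was not tested.

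Of 21 tested metal response genes 1 was higher and 0 lower (4.32% and 4.25% of all genes). The higher one was the zinc transporter gene Slc39a13 (0.53 ± 0.14, adjusted p = 0.0458). Mtf1, which encodes the metal sensor that drives Mt1 and Mt2, was at 11.7 ± 0.101 against 14.4 ± 0.930 CPM (-0.27 ± 0.22, adjusted p = 0.525). Slc30a1, a zinc exporter gene that MTF1 also drives, was at 15.2, 10.4 and 5.7 CPM in CD34 negative and at 14.0, 10.9 and 12.5 CPM in CD34 positive CAFs (adjusted p = 0.668). Its lowest value was in the CD34 negative library of tumor 3, which also had the lowest Mt1 and Mt2. That library stood apart from the rest, and a shared cause was not tested.

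Of the 16 immediate early genes 4 were higher and 1 lower in CD34 negative CAFs (4.32% and 4.25% of all genes). On the list of glucocorticoid-induced genes 2 of the 16 also stand, Dusp1 and Zfp36. The higher ones were the heat shock genes Hspa1b (1.35 ± 0.19, adjusted p = 0.00319) and Hspa1a (1.30 ± 0.15, adjusted p = 0.00164), near-identical copies whose counts cannot be kept apart with certainty, and Jund (0.71, adjusted p = 0.0479) and Ier2 (0.49, adjusted p = 0.0459). Atf3 was lower (-0.62, adjusted p = 0.0192). The part of these stress genes in the differences of Tsc22d3, Per1 and Hsd11b1 was not tested.

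**Figure D5:**
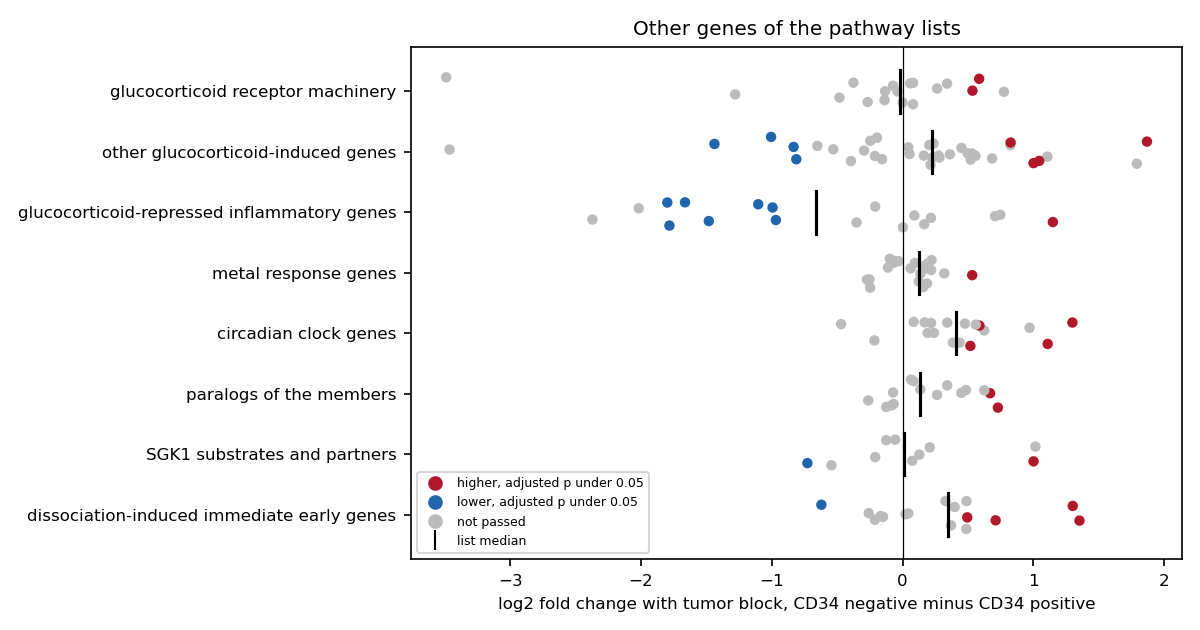
Log2 fold change of each tested gene of the 8 pathway lists, the 8 genes themselves left out (horizontal axis, limma-voom with the tumor block, CD34 negative minus CD34 positive). Points are genes, red and blue those with adjusted p under 0.05, and black ticks list medians; the inflammatory genes have the lowest median (-0.66) and the clock genes the highest (0.41).

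Across the 6 libraries, which share tumors in pairs, Mt1, Mt2 and Sgk1 followed each other (Pearson r of log2 CPM of 0.968 for Mt1 with Mt2, 0.917 for Sgk1 with Mt1 and 0.806 for Sgk1 with Mt2), and Tsc22d3 went with Per1 (0.855). Fkbp5, Zbtb16 and Hsd11b1 reached at most 0.447 with any other of the 8 genes. The lowest values were -0.75 for Zbtb16 with Sgk1 and -0.65 for Zbtb16 with Per1. The genes whose pattern was most like a member's, at a mean level of 3 or more log2 CPM, were Slc22a5, Cdr2l and Pim3 for Mt1 (r of 0.996 to 0.998), Tpst1, Bmp2k and Crybg3 for Mt2 (0.989 to 0.994), and Map1lc3a, Mpzl1 and Laptm4b for Sgk1 (0.993 to 0.995). Wwtr1, Pcnx and Itga8 were most like Tsc22d3 (0.995), Sh3pxd2a, Cplx2 and Sidt2 most like Per1 (0.987 to 0.994), and Ccn4, Rnf181 and Cxcl14 most like Hsd11b1 (0.982 to 0.995). Lrrk2, Cyp1b1 and Capza1 were nearest to Fkbp5 (0.968 to 0.991) and Pdzd2, Gm9320 and Gm20056 to Zbtb16 (0.976 to 0.991). These likenesses are descriptions over 6 libraries and were not tested.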

How the data were processed

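Per the labels, RNA of sorted CAFs was made into TruSeq RNA v2 libraries and sequenced on an Illumina NextSeq 500. The authors aligned the reads to GRCm38/mm10 and counted them per gene with featureCounts, and the deposited values are raw counts, not normalized, 1 column per library. Strand setting and handling of reads with several matches are not given in the sources used here. Fkbp5, Zbtb16 and Sgk1 overlap other annotated genes, none of which is in the count table. Whether reads from those genes are among the counts of Fkbp5, Zbtb16 and Sgk1 was not tested. The group and tumor of each library came from its title. Here filterByExpr at a minimum count of 10 set aside the genes with few counts, libraries were scaled by TMM, and groups were compared with limma-voom without a tumor term (the study's methods name these tools but not the terms of the model; R 4.3.3, edgeR 4.0.16, limma 3.58.1; DESeq2 1.42.0 as an alternative), with Benjamini-Hochberg adjustment over all 14855 genes at 0.05, two-sided. A positive log2 fold change means higher in CD34 negative CAFs.

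Both fractions came from the same tumors, so the tumor number pairs the libraries: deviations from the group means correlated at 0.373, 0.350 and 0.219 within tumors 1, 2 and 3, and a fit with the tumor as replicate block stands beside the main one. The 8 genes and all lists were chosen with earlier results of these data known. From each list, up to 6 genes with the largest blocked change were named, with all relatives of the 8 genes, Nr3c1, Nr3c2, Mtf1 and Slc30a1, and for each of the 8 genes the 3 genes most like it; Il6, Ccl2, Ddit4 and Glul were named after their values were seen, and 1 listed gene is not reported here. Alternatives covered scaling, filter, tool, library weights, depth thinned to 16238059 counts, and leaving out libraries and tumors. The scripts were tested on simulated data. Library totals ran from 16238059 to 86609267 counts, and counting error is largest for Zbtb16 (8 counts in its lowest library). No 2 libraries of a group agreed within sampling noise (chi-square of 133 to 239 per gene). If the 3 tumors were not separate mice, p-values measure only the spread between these libraries.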

Additional observations from a re-analysis of the deposited data

How the results depend on the processing

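In limma-voom without a block, 18 of all genes passed; the count was 32 with library totals alone, 9 by edgeR, 698 by DESeq2, 161 with sample quality weights, 703 when tumor was a random effect, 1273 with the replicate block (575 by edgeR, 1733 by DESeq2, 1028 after thinning), 1134, 851 and 2019 with the block and tumor 1, 2 or 3 left out, and 0 to 86 when single libraries or tumors were left out. The counts of 0 came without the CD34 negative library of tumor 3, without the CD34 positive library of tumor 2, without tumor 2 and without tumor 3, where 2217, 1555, 1123 and 1641 genes had an unadjusted p under 0.05 (limma-voom). Of the 8 genes, 0 passed without a block in any scaling, filter, tool or leave-out run; 1 passed when tumor was a random effect (Per1), 3 with the replicate block (2 by edgeR, 4 by DESeq2, 3 after thinning), and 3, 2 and 4 with the block and tumor 1, 2 or 3 left out. Of the listed genes 0 passed in limma-voom without a block; 10 did by DESeq2, 1 with quality weights, 12 with a random effect, 31 with the block (12 by edgeR, 37 by DESeq2, 26 after thinning), 29, 23 and 42 with tumor 1, 2 or 3 left out of it, and 0 to 3 without single libraries or tumors. All 31 listed genes called with the block kept their sign under every scaling, tool and left-out tumor, and 21 to 31 of them passed in limma-voom and DESeq2 (12 in edgeR).

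Tsc22d3, Per1, Hsd11b1 and Zbtb16 kept their direction in all 27 alternatives. Fkbp5 changed sign with the block and tumor 1 left out (0.10), and ran from -0.43 to 0.13 over the left-out libraries. Mt1 was positive by edgeR (0.067), DESeq2 (0.055), with quality weights (0.14) and with the block without tumor 3 (0.18), and ran from -0.61 to 0.38 over left-out libraries. Sgk1 ran from -0.067 to 0.62 and Mt2 from -0.71 to 0.13. The cause was not tested. Thinning all libraries to 16238059 counts left 16 genes called without a block, and Zbtb16, with 8 and 12 counts in its lowest libraries, went from -1.73 to -1.06 in the blocked fit.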
